A study of Mus musculus with 5 samples.

Results

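Described here are 9 genes that encode chromatin regulators and that human genetics has linked to autism: Chd8, Chd2, Adnp, Arid1b, Ash1l, Setd5, Kmt2c, Pogz and Ankrd11. They were chosen by name, as 9 of the 31053 genes counted in the deposited tables, with no threshold on a measured value. As background, chromatin regulators set which genes a cell can read. KMT2C writes methyl marks on histone H3 lysine 4 at enhancers, and ASH1L and SETD5 are SET-domain proteins, of which ASH1L methylates histone H3 lysine 36. CHD8 and CHD2 are helicases that use ATP to move nucleosomes, and ARID1B is a DNA-binding subunit of the BAF remodelling complex. ADNP and POGZ are zinc-finger proteins that bind heterochromatin protein HP1, and ANKRD11 recruits histone deacetylases to nuclear receptor coactivators. In people, loss of 1 copy of these genes causes neurodevelopmental syndromes.

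The series measured RNA in single nuclei of the paraventricular hypothalamus of young male mice on a C57BL6 background, in 5 libraries, each made from nuclei of 2 to 4 mice pooled. In the first experiment the mice carried OT-Cre, which is expressed in oxytocin neurons, and the Ai9 reporter Rosa26tm9(CAG-tdTomato)Hze; on gestation day 12.5 the mothers were given either saline, at 10 mL/kg, or valproic acid (VPA), at 500 mg/kg. Nuclei were taken at 5 weeks, with 1 library for each. In the second, OT-Cre; stop-hM3 mice (Rosa26dreaddm3, a Cre-dependent hM3 receptor that clozapine N-oxide, CNO, activates) had all been exposed to VPA before birth and received saline (hM3 control, 1 library) or CNO (2 libraries) on postnatal day 2; nuclei were taken at 5 to 7 weeks. An AAV injection into the paraventricular and supraoptic regions is recorded for the second experiment, without its content. Age, genotype and virus therefore differ between the experiments, and no library of one was compared with a library of the other to measure a treatment. Nuclei had been sorted on DAPI with a gate that favoured large nuclei, so shares of cell types are those of sorted nuclei. With 1 library per arm (2 for CNO), the treatment contrasts carry no test. Cell classes and neuron types were tested over the 5 libraries with the library as a block. Those p-values measure how class or type differences vary between libraries, which are pools of mice that also differ in treatment.

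Where 5 values stand in a row, the saline library comes first, then VPA, then the hM3 control, and the CNO libraries (replicates 1 and 2) close the row. Libraries held 52506958 to 76243280 UMIs in all and a median of 3722.5 to 11913 UMIs (unique molecular identifiers, each counting 1 captured RNA molecule) per nucleus over 4440 to 10904 nuclei, of which 4115 to 9823 were kept; any 2 libraries shared 4 to 23 barcodes. The median depth of a kept neuron was 13186, 6145, 15265, 16390.5 and 8247 UMIs, lowest in the VPA library and next in CNO replicate 2. CNO replicate 2 stood apart in its RNA: in its neurons the 5 genes mt-Co1, mt-Nd1, mt-Atp6, mt-Cytb and Malat1 summed to 45840 CPM (the usual scale for a gene's share of all UMIs) against 16258 to 26736 in the other libraries. Interferon-response genes summed to 84.1, 56.1 and 87.1 CPM in neurons of the second experiment and to 10.9 and 13.4 in the first. Neuron-like nuclei numbered 3648, 7312, 2541, 2184 and 1618, astrocyte-like 680, 1129, 1034, 376 and 1575, oligodendrocyte-like 294, 497, 302, 750 and 454, oligodendrocyte precursor (OPC)-like 111, 292, 122, 89 and 101, and microglia-like 84, 136, 95, 23 and 31. Of the astrocyte-like nuclei, 1481 of 1575 in CNO replicate 2 lay in a cluster led by Apoe that held 33 to 267 in the other libraries. OT-like neurons, with the oxytocin gene Oxt and Sim1 and Otp of the paraventricular lineage, numbered 60, 102, 59, 15 and 39. Thalamus-type neurons, with Tcf7l2, Lef1 and Prkcd, were present in each library (180 to 428 nuclei); such neurons lie outside the labelled nucleus.

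The genes lie on 8 chromosomes (GENCODE vM21, GRCm38, all protein coding) and span 26.1 to 353 kb: Kmt2c (ENSMUSG00000038056) at chr5:25271798-25498783, Ash1l (ENSMUSG00000028053) at chr3:88950622-89079375, Setd5 (ENSMUSG00000034269) at chr6:113077365-113153435, Chd8 (ENSMUSG00000053754) at chr14:52198151-52257780, Chd2 (ENSMUSG00000078671) at chr7:73426638-73541830, Arid1b (ENSMUSG00000069729) at chr17:4994332-5347656, Adnp (ENSMUSG00000051149) at chr2:168180986-168207112, Pogz (ENSMUSG00000038902) at chr3:94837567-94882326 and Ankrd11 (ENSMUSG00000035569) at chr8:122883822-123042277. RefSeq promoters (GRCm38.p6) were matched for 7 of them; Chd2 and Ash1l are named only. Shown here are the 250 bases before the RefSeq start of the genes with the largest glial differences, Kmt2c and Ankrd11, and of Adnp and Pogz, which share a run of letters. They are read 5′ to 3′ on the gene's strand, with capitals marking 3 motifs on either strand. These are TGACG (reverse CGTCA), part of the site of CREB factors; CGGAAG (reverse CTTCCG), of ETS factors; and GGGCGG (reverse CCGCCC), of SP factors.
Kmt2c, chr5:25498784-25499033, minus strand: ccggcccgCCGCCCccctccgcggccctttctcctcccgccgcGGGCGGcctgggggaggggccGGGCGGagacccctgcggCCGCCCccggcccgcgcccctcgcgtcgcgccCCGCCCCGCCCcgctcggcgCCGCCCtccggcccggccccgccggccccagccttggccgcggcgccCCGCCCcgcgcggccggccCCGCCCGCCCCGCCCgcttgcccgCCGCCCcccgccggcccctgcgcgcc
Ankrd11, chr8:123042285-123042534, minus strand: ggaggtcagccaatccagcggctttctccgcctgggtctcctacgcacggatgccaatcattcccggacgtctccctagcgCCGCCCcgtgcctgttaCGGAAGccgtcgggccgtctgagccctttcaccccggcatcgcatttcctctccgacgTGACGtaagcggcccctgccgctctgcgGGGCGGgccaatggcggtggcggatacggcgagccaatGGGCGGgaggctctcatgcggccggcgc
Adnp, chr2:168207113-168207362, minus strand: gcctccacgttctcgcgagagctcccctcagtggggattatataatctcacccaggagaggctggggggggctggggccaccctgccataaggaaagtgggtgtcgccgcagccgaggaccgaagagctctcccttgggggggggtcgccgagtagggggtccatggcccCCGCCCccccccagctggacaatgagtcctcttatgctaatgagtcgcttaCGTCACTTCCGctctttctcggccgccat
Pogz, chr3:94837187-94837436, plus strand: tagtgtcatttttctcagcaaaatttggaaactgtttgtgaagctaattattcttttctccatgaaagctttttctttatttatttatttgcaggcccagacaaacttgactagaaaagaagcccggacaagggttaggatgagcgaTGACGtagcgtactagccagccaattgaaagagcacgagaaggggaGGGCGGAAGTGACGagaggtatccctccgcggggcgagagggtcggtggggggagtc
The Kmt2c stretch was 91.6% G or C, more than in 99.996956% of 32851 RefSeq promoter windows of this length, and held 12 matches to the SP motif, some of which overlap. Over all windows the median was 52.4% G or C and over the 7 members 68.8%. The SP motif was in 6 of the 7 members and 32.7% of all windows, the CREB motif in 4 and 17.8%, and the ETS motif in 3 and 13.6%. The member without the SP motif is Setd5, whose RefSeq window lies 27570 bases from the GENCODE start and so may not be its main promoter. The RefSeq start of Arid1b lies 742 bases into its GENCODE gene. Both windows enter the median and the motif counts. Adnp holds the 12-letter run CGTCACTTCCGC and Pogz its reverse complement GCGGAAGTGACG, in which the CREB and ETS letters adjoin. That run, found by comparing these windows, is in 40 of all 32851 (0.122%). Adnp and Ankrd11 share a run of the same length, CGCTTACGTCAC, on opposite strands as well. A match is a description of letters; no binding was measured.

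The 9 genes were read in all cell classes, and for 8 of them the level was from about 64 to 842 CPM in neurons, astrocytes, oligodendrocytes, OPCs and microglia alike. The exception was Adnp, at 2.34, 2.02, 3.52, 3.43 and 2.87 CPM in neurons. The differences between classes that stood out were Kmt2c in astrocytes and Ankrd11 in OPCs and microglia, each about 2-fold or more in CPM over neurons in every library. Adnp lies wholly within Gm20716, a protein-coding gene model on the same strand that itself read 3.97 to 5.49 CPM in neurons, so its counts are uncertain and it was too low for the class test. Levels are compared here between cells for 1 gene at a time, not between genes.

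**Figure D1:**
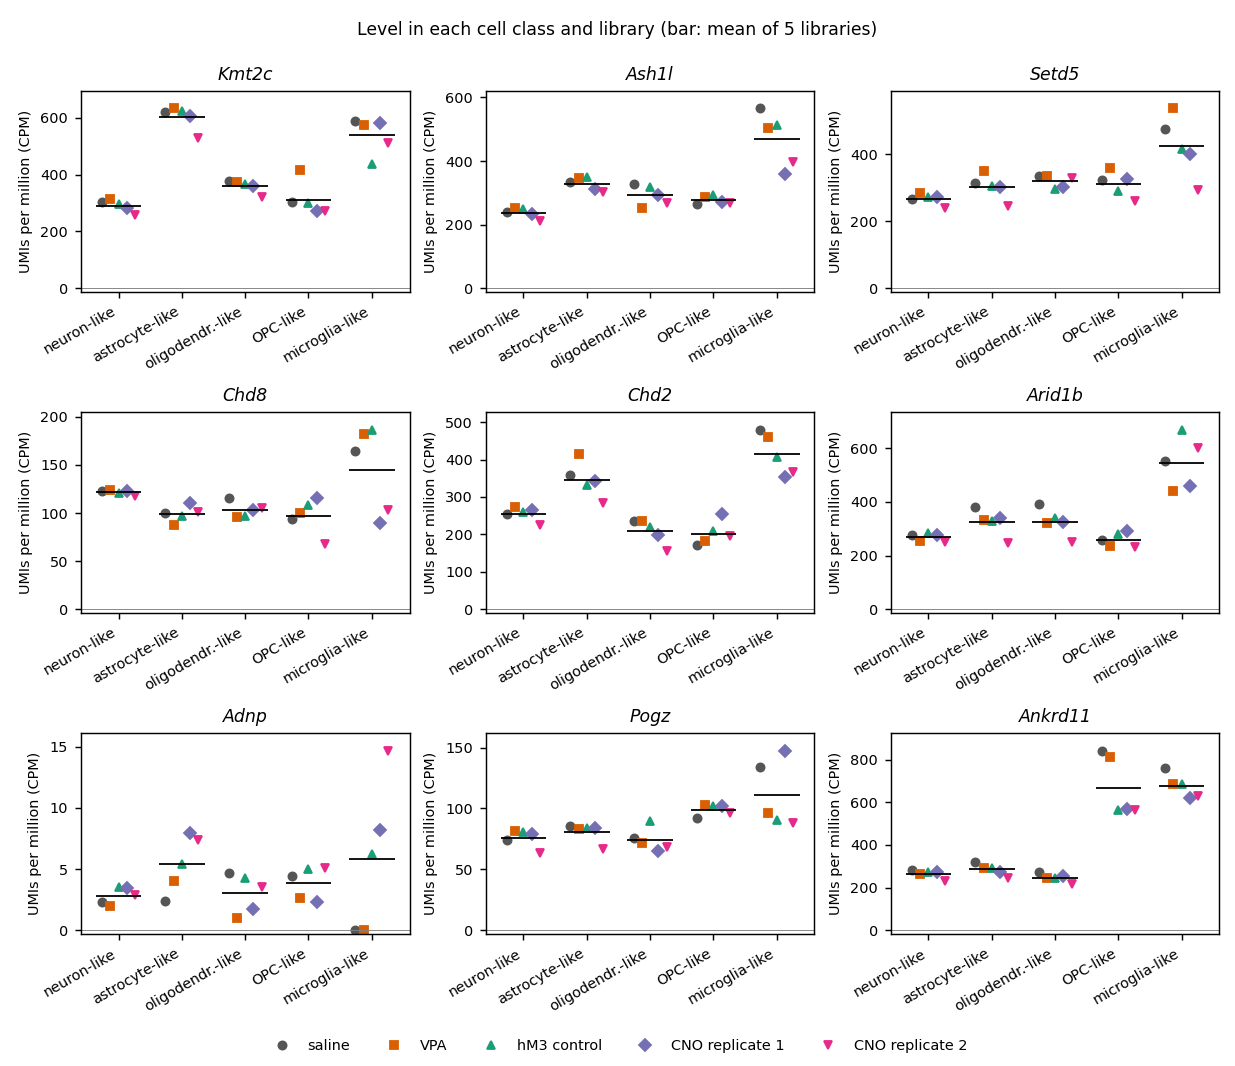
Level of each of the 9 genes (CPM, linear axis) in neuron-, astrocyte-, oligodendrocyte-, OPC- and microglia-like nuclei; points are the 5 libraries and bars their mean. Kmt2c was highest in astrocytes (528 to 634 CPM against 259 to 313 in neurons), and Ankrd11 in OPCs and microglia (563 to 842 and 622 to 760 CPM against 229 to 281 in neurons).

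Class differences were tested in 1 edgeR fit of 12185 genes with the library as a block, each glial class against neurons, in log2 units of the share of RNA after TMM scaling. Glia and neurons differ in many genes: 72.3% of all genes tested passed for astrocytes, 70.1% for oligodendrocytes, 42.2% for OPCs and 57.9% for microglia at an adjusted p below 0.05. Of the 8 members tested, 3 rose and 1 fell in astrocytes, 4 rose in oligodendrocytes, 2 rose and 2 fell in OPCs, and 4 rose in microglia. For all genes 35.4% rose and 36.9% fell in astrocytes, 33.4% and 36.7% in oligodendrocytes, 17.8% and 24.4% in OPCs, and 24.1% and 33.8% in microglia. The members' median differences were 0.15, 0.20, 0.12 and 0.30 in these 4 classes, and the medians of all genes -0.01, -0.03, -0.09 and -0.20. The members' count of calls was thus no larger a share than that of all genes in astrocytes, oligodendrocytes and microglia, and slightly larger in OPCs. Leaving CNO replicate 2 out kept 15 of these 16 calls.

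Kmt2c, the histone H3 lysine 4 methyltransferase, was at 302, 313, 297, 284 and 259 CPM in neurons and at 622, 634, 625, 608 and 528 CPM in astrocytes. Each astrocyte value was 2.02 to 2.14 times the neuronal value of its own library, and the groups did not overlap. The fitted difference was 0.98 (SE 0.11, edgeR adjusted p = 4.2e-09), and with the Apoe-led cluster left out it was 1.09. Oligodendrocytes read 376, 374, 366, 361 and 323 CPM, again above every neuronal value, with a difference of 0.40 (SE 0.11, edgeR adjusted p = 0.0027). OPCs spanned 270.2 to 416 CPM and overlapped neurons, with a difference of 0.06 (SE 0.12, edgeR adjusted p = 0.73) that did not pass. Microglia read 589.7, 574, 439, 581 and 513 CPM, with a difference of 0.39 (SE 0.13, edgeR adjusted p = 0.0093), a call lost without the filter on low counts and with nuclei of at least 2000 UMIs. In order of mean CPM the classes ran astrocytes, microglia, oligodendrocytes, OPCs and neurons; the values of astrocytes and microglia overlapped, as did those of OPCs with oligodendrocytes and neurons.

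These levels are shares of each class's RNA, and a glial nucleus held fewer UMIs than a neuronal one. Counted per nucleus, Kmt2c gave 3.93 ± 1.46 (SD, n = 5 libraries) UMIs in neurons and 2.11 ± 0.823 (SD, n = 5 libraries) in astrocytes, or 0.470 to 0.589 of the neuronal value within a library. For 7 of the 8 tested members the UMIs per nucleus were below the neuronal value in each glial class and library. Ankrd11 was the exception, in OPCs, where they were above it in 4 of 5 libraries. Neuron markers (8 genes) summed to 23205 to 26256 CPM in neurons, 6885 to 13560 in OPCs, 1769 to 5438 in microglia, 2497 to 3228 in astrocytes and 955 to 2341 in oligodendrocytes, and the part of neuronal RNA in the glial values was not tested.

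Ash1l, which methylates histone H3 lysine 36, read 241, 251, 249, 234 and 212 CPM in neurons. It was above every neuronal value in astrocytes, at 332, 347, 349, 312 and 302 CPM, with a difference of 0.40 (SE 0.10, edgeR adjusted p = 0.0011). Microglia read 565, 505, 514, 360.4 and 396 CPM, the highest of the 5 classes, with a difference of 0.52 (SE 0.12, edgeR adjusted p = 5.1e-04). It rose in oligodendrocytes too, by 0.39 (SE 0.11, edgeR adjusted p = 0.0018), and in OPCs the difference of 0.18 (SE 0.11, edgeR adjusted p = 0.19) did not pass. Ash1l was therefore called in 3 of 4 glial classes.

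Setd5, also a SET-domain protein, was more even. Neurons read 267, 284, 273, 273 and 240.4 CPM and oligodendrocytes 334, 335, 296, 303 and 329 CPM, which did not overlap, with a difference of 0.34 (SE 0.10, edgeR adjusted p = 0.0048). In astrocytes the range of 246 to 349 CPM overlapped the neuronal one, with a difference of 0.11 (SE 0.10, edgeR adjusted p = 0.36). A difference of 0.18 (SE 0.11, edgeR adjusted p = 0.19) in OPCs did not pass either. Microglia read 474, 537, 417, 401 and 293 CPM, above every neuronal value, but after scaling the difference was 0.21 (SE 0.12, edgeR adjusted p = 0.14).

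Of the CHD remodellers, Chd8 was at 123, 124, 121, 123 and 118 CPM in neurons and lower in astrocytes, at 99.6, 87.8, 96.4, 110.5 and 101 CPM, with no overlap and a difference of -0.37 (SE 0.11, edgeR adjusted p = 0.0027). Oligodendrocytes read 116, 96.0, 96.7, 103 and 105 CPM, each below the neuronal values, though the fitted difference of -0.15 (SE 0.11, edgeR adjusted p = 0.23) did not pass. In OPCs it fell by the test, -0.34 (SE 0.12, edgeR adjusted p = 0.025), with values of 93.4, 100.1, 109, 116 and 68.2 CPM. That call was lost without CNO replicate 2 (-0.25, edgeR adjusted p = 0.109) and in 6 other settings.

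Chd2 rose in astrocytes, from 256, 272, 260.5, 265 and 224 CPM in neurons to 359.9, 414, 332, 342 and 284 CPM, with a difference of 0.36 (SE 0.11, edgeR adjusted p = 0.0032). The test of Chd8 and Chd2 against each other was not made; their calls in astrocytes had opposite signs. In OPCs Chd2 read 171, 182, 209.6, 254 and 194 CPM and fell by the test, -0.38 (SE 0.11, edgeR adjusted p = 0.0081), a call that was lost without the saline or the VPA library, without the library block and with doublets kept. Oligodendrocytes read 235, 237, 220.0, 198 and 155 CPM, with a difference of -0.21 (SE 0.11, edgeR adjusted p = 0.089). Microglia read 480.2, 462, 408, 352 and 367 CPM, above every neuronal value, with a scaled difference of 0.22 (SE 0.13, edgeR adjusted p = 0.14) that did not pass. An antisense gene, Gm44686, overlaps 3.31% of Chd2 and was at 28.9 to 67.8 CPM in neurons, and Gm26590 overlaps 26.3% of Chd8 at 6.38 to 14.1 CPM; whether strand was used in counting is not given in the sources used here.

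Arid1b, the BAF subunit, read 276, 255, 282, 276 and 249 CPM in neurons and 553, 440.2, 669, 459 and 601 CPM in microglia, with no overlap and a difference of 0.53 (SE 0.13, edgeR adjusted p = 7.1e-04). It rose in oligodendrocytes, 0.36 (SE 0.11, edgeR adjusted p = 0.0062), where the values of 392, 323, 342, 325 and 249 CPM overlapped neurons through CNO replicate 2. Astrocytes (0.20, SE 0.11, edgeR adjusted p = 0.1) and OPCs (-0.09, SE 0.12, edgeR adjusted p = 0.58) did not pass.

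Pogz, the zinc-finger partner of HP1, read 74.0, 81.3, 80.4, 78.8 and 63.7 CPM in neurons and 92.0, 103, 102, 102 and 96.0 CPM in OPCs, which did not overlap, and the difference of 0.34 (SE 0.10, edgeR adjusted p = 0.0069) passed. In the other 3 classes its scaled differences lay between 0.02 and 0.05 and none passed, although microglia read 134, 96.6, 90.3, 147 and 88.0 CPM, above every neuronal value. Adnp, the most weakly read member, was at 2.35, 4.01, 5.44, 7.93 and 7.35 CPM in astrocytes and 4.64, 0.99, 4.28, 1.76 and 3.50 CPM in oligodendrocytes. No Adnp UMI was seen in microglia of the saline and VPA libraries, where 3 counts would have been 18.2 and 16.1 CPM, so a level like that of neurons was not detectable at this depth.

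Ankrd11, the deacetylase recruiter, gave the largest class difference of the members. Neurons read 281, 265, 274, 271 and 229 CPM and OPCs 842, 811, 564, 567 and 563 CPM, 2.06 to 3.06 times as much within a library, with a difference of 1.29 (SE 0.12, edgeR adjusted p = 2.2e-10). Both libraries of the first experiment were above 810 CPM in OPCs and all 3 of the second lay between 563 and 568 CPM; the experiments differ in genotype, age and virus. Counted per nucleus, OPCs gave 4.11 ± 1.78 (SD, n = 5 libraries) UMIs and neurons 3.62 ± 1.47 (SD, n = 5 libraries), a ratio of 0.952 to 1.24 within a library. Microglia read 759.9, 687, 685, 622 and 631 CPM, with a difference of 0.87 (SE 0.13, edgeR adjusted p = 6.3e-07). Astrocytes (0.04, SE 0.11, edgeR adjusted p = 0.76) and oligodendrocytes (-0.01, SE 0.12, edgeR adjusted p = 0.95) did not pass. In committed oligodendrocyte precursors (16 to 101 nuclei per library), not part of the fit, Ankrd11 was at 357, 247, 266, 270.3 and 265 CPM, below every OPC value. Ankrd11 lies wholly within Gm20388, a long gene model on the opposite strand that read 540.1 to 1061 CPM in neurons, 812 to 1783 in OPCs and 644 to 1213 in microglia; without the strand setting the reads of this pair cannot be told apart.

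Microglial values depend on the scaling. Without TMM factors the median difference of 115 chromatin genes, members included, moved by 0.48 in microglia, and all 8 members then passed as higher, with Ankrd11 at 1.36, Arid1b at 1.02, Ash1l at 1.00 and Kmt2c at 0.88. Among these, Pogz, Setd5 and Chd2, not called with the scaling, were at 0.51, 0.69 and 0.70. Chd8 turned from -0.11 (SE 0.15, edgeR adjusted p = 0.71) to 0.37 (edgeR adjusted p = 0.038). In the other 3 classes the shift was at most 0.10 in size.

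**Figure D2:**
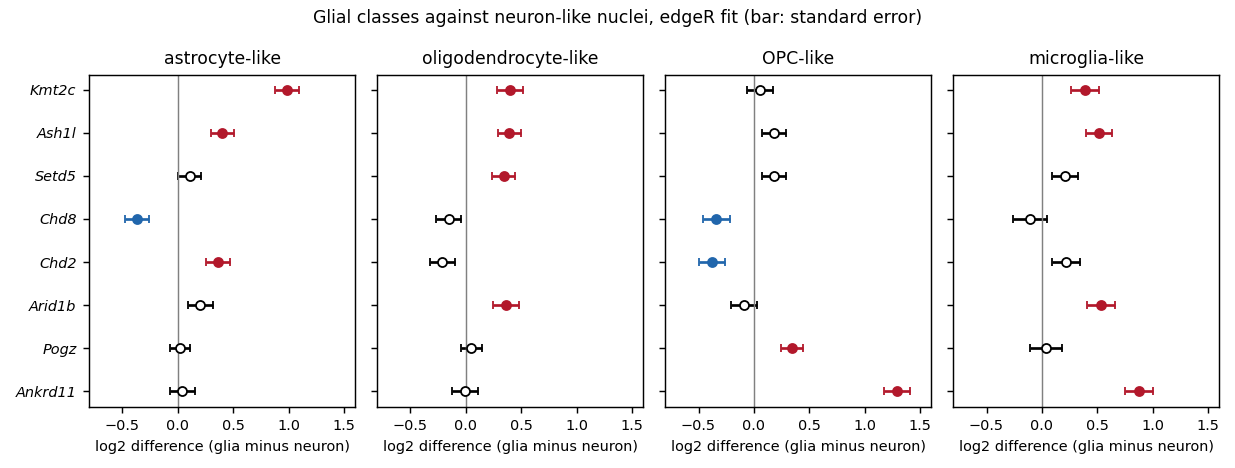
Fitted log2 difference of each glial class from neurons for the 8 members tested, 1 panel per class. Bars are 1 SE, derived from the F statistic of the fit. Filled points (red higher, blue lower) passed an edgeR adjusted p below 0.05 and open points did not. Ankrd11 in OPCs (1.29), Kmt2c in astrocytes (0.98) and Ankrd11 in microglia (0.87) lie farthest from 0.

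Among neurons, 1 member stood out. Arid1b was at 466, 534, 527, 514 and 415 CPM in OT-like neurons, which make oxytocin, and at 277, 239, 269.6, 280.4 and 258 CPM in GABAergic neurons, 303, 291, 327, 285 and 285 CPM in the other Sim1/Otp-like neurons, 236, 206, 218, 256 and 195 CPM in thalamus-type neurons and 230.1, 214, 234, 261 and 232 CPM in other glutamatergic neurons marked by Slc17a6. Every OT-like value was above every value of the other types. The OT-like type is 1 sub-cluster of 275 nuclei, while each other type pools several sub-clusters. Adnp, from few counts, had an OT-like difference of similar size that did not pass (-0.88, SE 0.41, edgeR adjusted p = 0.16). Sim1/Otp-like neurons had no member that passed.

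The types were compared in 1 edgeR fit of 14980 genes, each against the mean of the other 4. Of all genes 32.1% passed for OT-like, 28.6% for GABAergic, 22.4% for Sim1/Otp-like, 49.2% for thalamus-type and 20.5% for other Slc17a6 neurons. Of the 9 members 2 passed for OT-like, 2 for GABAergic, 0 for Sim1/Otp-like, 4 for thalamus-type and 2 for other Slc17a6 neurons. For all genes 15.8% rose and 16.4% fell in OT-like, 14.9% and 13.7% in GABAergic, 12.4% and 10.0% in Sim1/Otp-like, 25.4% and 23.8% in thalamus-type, and 12.2% and 8.31% in other Slc17a6 neurons. Among the members the counts that rose and fell were 2 and 0 in OT-like, 1 and 1 in GABAergic, 0 and 0 in Sim1/Otp-like, 1 and 3 in thalamus-type, and 0 and 2 in other Slc17a6 neurons. Beside the 0 for Sim1/Otp-like neurons, 0 of 9 had an unadjusted p below 0.05 there, and DESeq2 also called 0; without TMM factors 3 passed as higher (Ash1l, Pogz and Ankrd11), where the median of the 115 chromatin genes moved by 0.09. The members' median differences lay between -0.05 and 0.03, and those of all genes between -0.02 and 0.01.

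For Arid1b the OT-like difference was 0.86 (SE 0.0567, edgeR adjusted p = 9.2e-13), and it was 0.89 without CNO replicate 2, and between 0.80 and 0.96 in all 12 alternatives run. It fell in other Slc17a6 neurons (-0.37, SE 0.0555, edgeR adjusted p = 1.2e-05), in GABAergic neurons (-0.24, SE 0.0531, edgeR adjusted p = 9.1e-04) and in thalamus-type neurons (-0.22, SE 0.0545, edgeR adjusted p = 0.0016). Since each type is set against the mean of the others, the high OT-like level enters the comparison for the other 4 types. Per nucleus, OT-like neurons gave 8.91 ± 3.64 (SD, n = 5 libraries) Arid1b UMIs and GABAergic neurons 3.31 ± 1.41 (SD, n = 5 libraries).

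Kmt2c also rose in OT-like neurons, at 352, 376, 397, 319.8 and 357 CPM against 264 to 313 CPM in GABAergic neurons, with a difference of 0.26 (SE 0.0471, edgeR adjusted p = 6.3e-05). All 5 OT-like values were above all 5 GABAergic ones. Sim1/Otp-like neurons ran from 285.5 to 325.6 CPM and overlapped the OT-like range. In other Slc17a6 neurons Kmt2c fell by the test (-0.12, SE 0.0427, edgeR adjusted p = 0.046), but that call was lost without any 1 of the 5 libraries. The OT-like values rest on 15 to 102 nuclei per library.

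Pogz had its lowest mean in thalamus-type neurons, at 53.2, 55.4, 59.8, 54.2 and 50.7 CPM. GABAergic neurons read 79.6, 85.8, 84.0, 85.0 and 70.4 CPM and did not overlap these values. Other Slc17a6 neurons, at 55.6 to 79.2 CPM, did overlap them. The differences were -0.26 (SE 0.0427, edgeR adjusted p = 8.2e-06) for thalamus-type and 0.11 (SE 0.0371, edgeR adjusted p = 0.027) for GABAergic neurons, the second lost without the saline, the VPA or the hM3 control library. Ash1l fell in thalamus-type neurons as well, at 189, 182, 190.1, 177 and 179 CPM, below every value of the other types, with a difference of -0.14 (SE 0.0405, edgeR adjusted p = 0.0047), a call lost without the VPA library or the library block.

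Chd2 passed as higher in thalamus-type neurons (0.17, SE 0.0404, edgeR adjusted p = 8.1e-04), but its mean level of 238 CPM there was below the 267.5 CPM of GABAergic neurons. Scaling decides its sign: without TMM factors it was -0.087 (edgeR adjusted p = 0.053). For this type the median of the 115 chromatin genes then moved by -0.26, 7 members passed as lower and none as higher, and Setd5 and Chd8 turned from 0.06 and 0.08 to -0.20 and -0.18. For OT-like neurons the shift was 0.10, with 5 members higher. Chd8, Setd5, Ankrd11 and Adnp passed in no type with the scaling.

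**Figure D3:**
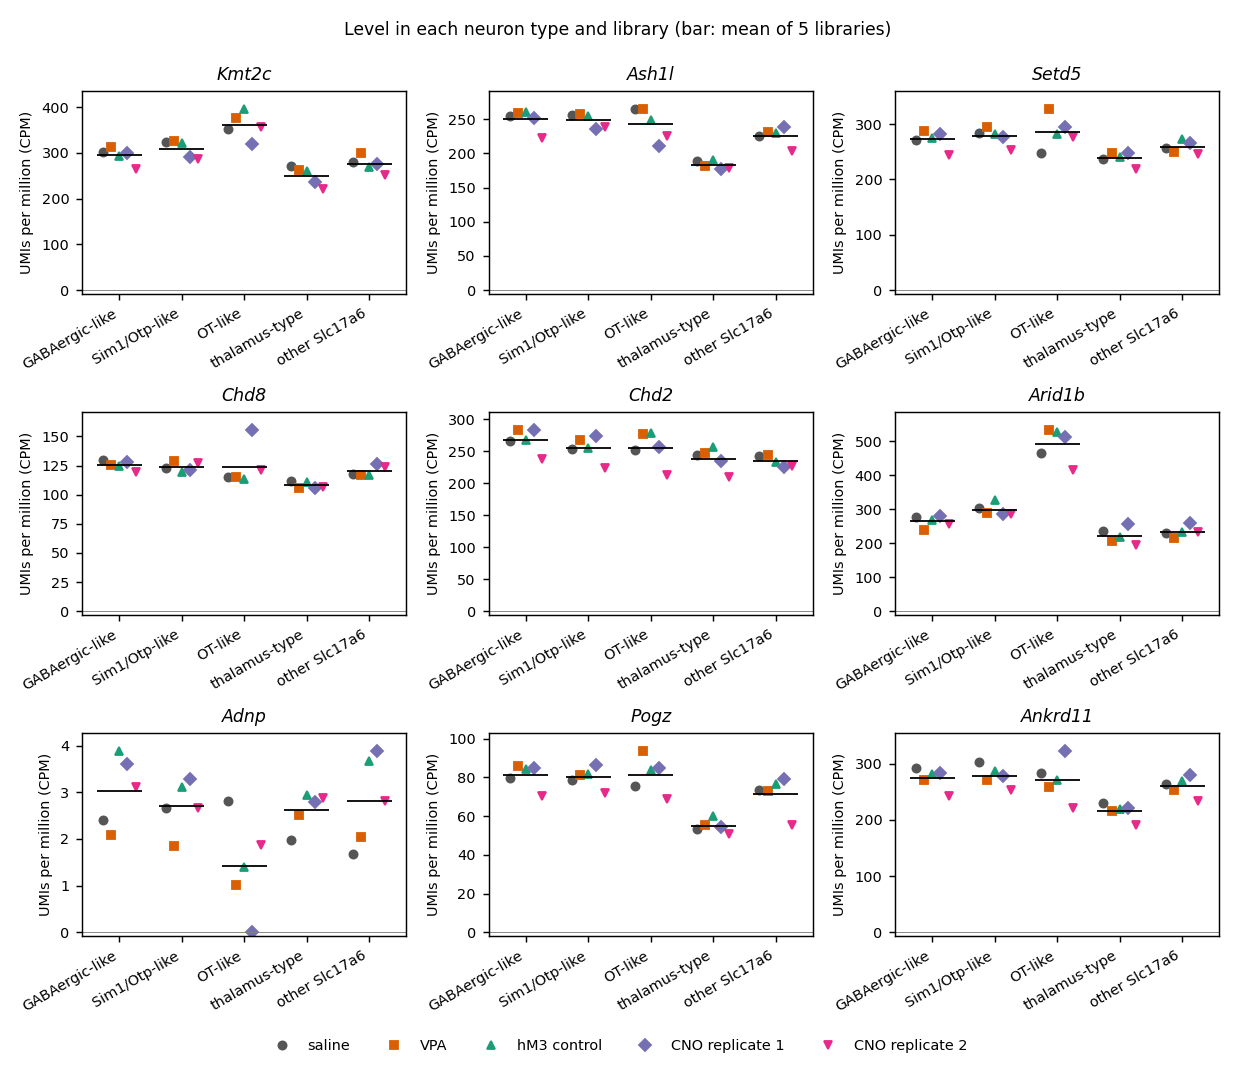
Level of each of the 9 genes (CPM, linear axis) in 5 neuron types; points are the 5 libraries and bars their mean. Arid1b in OT-like neurons (415 to 534 CPM) is above all other types (195 to 327 CPM), while Chd8 lies between 105 and 156 CPM in all of them.

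Neurons were also split finer, into 50 sub-clusters of at least 100 nuclei, with the members left out of the genes used for clustering. Arid1b spanned 171 to 497 CPM across them, 2.90-fold, and the other 7 well-read members 1.53- to 2.19-fold. Its 5 highest sub-clusters were led by Ucn3 and Trh (497 CPM), Oxt (491), Th and Drd2 (462), Avp (364), and Esr2 with Oxt (357). Ucn3, Trh, Oxt and Avp encode peptides, and Th makes the precursor of dopamine. The Th- and Drd2-led sub-cluster was GABAergic, so a high Arid1b level was not particular to 1 of the 5 types. In each of the first 3 of these 5 sub-clusters the lowest library was above 414 CPM. A thalamus-type sub-cluster led by Prkcd and Lef1, with at least 10 nuclei in 4 libraries, was the lowest of the 50 for Chd8 (99.1 CPM), Ash1l (169.8), Setd5 (229), Pogz (49.6) and Ankrd11 (188). The leading genes were read after the values were seen, and these ranks carry no test. They are ranks of CPM without scaling factors. Leaving such factors out moved the median difference of the 115 chromatin genes by -0.26 in thalamus-type neurons. With the factors, Setd5 (0.06) and Chd8 (0.08) were not lower in that type.

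The members' levels were compared over 29 first-level clusters of at least 100 nuclei, 5 of which (121 to 652 nuclei) had been set aside from the named classes. Pearson's r of log2(CPM + 10) between members, Adnp left out, is a description over clusters that share libraries and depth. It ran from -0.36 (Chd8 and Kmt2c) to 0.72 (Ash1l and Setd5), with a median of 0.32 over 28 pairs, 26 of them above 0. No r over pairs of non-member genes was taken as background, and these CPM carry no scaling factors. The number of pairs above 0 is therefore no result about the members. Among 7360 genes the most similar to Kmt2c was Suz12 (r = 0.91), a subunit of Polycomb repressive complex 2, then BC003331 (0.87) and Abi1 (0.86). For Ash1l they were Mkln1 (0.91), Nipbl (0.91), which loads cohesin, and Pias1 (0.90); those given for Setd5 are Wac (0.85) and Smurf2 (0.85). Chd8 was closest to Trrap (0.83), a scaffold of histone acetyltransferase complexes, Slc39a11 (0.82) and Tubgcp3 (0.81), and Chd2 to Slmap (0.81), Jak1 (0.79) and Acp2 (0.79). Arid1b followed Nrip1 (0.74), a nuclear receptor corepressor, Casd1 (0.69) and Lsg1 (0.66). Ankrd11 followed Usp24 (0.86), Ranbp9 (0.79) and Rnf216 (0.76), Pogz Bmt2, Mfsd11 and Atp13a3 (all 0.69), and Adnp, from few counts, Phax (0.84), Eif4ebp2 (0.82) and Extl3 (0.82).

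Other chromatin genes were counted in the same fit, against the shares of all genes given above. Of 103 tested genes on 7 lists of CHD, BAF, COMPASS, histone H3 lysine 36, heterochromatin, co-repressor and other autism-linked chromatin genes, 37 rose and 29 fell in astrocytes, 44 and 24 in oligodendrocytes, 18 and 13 in OPCs, and 31 and 28 in microglia. Chd7, a CHD remodeller, rose by 3.05 to 3.79 in the 4 glial classes. Ezh2, the Polycomb methyltransferase, rose by 1.67 in astrocytes, 1.91 in oligodendrocytes and 1.52 in OPCs. Smarcd2 rose in astrocytes (1.86), Chd1l in oligodendrocytes (1.92), Ss18 in OPCs (1.47) and microglia (2.00), and Ncoa3 in microglia (1.87). Bcl11a fell by 1.6 to 4.46 in the 4 classes, Actl6b, a subunit of neuronal BAF, by 3.91 in astrocytes and 1.13 in OPCs, and Asxl3 by 3.87 in astrocytes. Chd5 fell in oligodendrocytes (-3.66), OPCs (-1.02) and microglia (-2.97), Bcl11b in oligodendrocytes (-3.74) and Dpf1 in microglia (-3.24). By list, CHD remodellers had 4 of 8 higher and 2 lower in astrocytes, and the BAF list 14 and 9 of 26; the COMPASS list had 3 and 3 of 15, the histone H3 lysine 36 list 1 and 5 of 12, the heterochromatin list 2 and 3 of 11, the co-repressor list 3 and 2 of 10, and the autism list 10 and 5 of 21.

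Between neuron types 10 of 105 listed genes rose and 16 fell in OT-like neurons. Tbl1xr1 (0.62), a subunit of the NCOR co-repressor, Morf4l2 (0.47) and Chd4 (0.45) rose most, and Bcl11a (-2.33), Dpf3 (-1.54) and Smarcd3 (-1.16) fell most. Counts were 15 and 8 in GABAergic, 10 and 9 in Sim1/Otp-like, 27 and 25 in thalamus-type and 11 and 3 in other Slc17a6 neurons. GABAergic neurons had more Bcl11a (1.03), Chd7 (0.81) and Dpf3 (0.71) and less Tbl1xr1 (-0.35), Bcorl1 (-0.30) and Chd9 (-0.26), and Sim1/Otp-like neurons more Dpf3 (1.70), Chd7 (1.04) and Bcl11a (0.81) and less Tbl1xr1 (-0.42), Smarca2 (-0.33) and Kdm6a (-0.27). Thalamus-type neurons had more Bcl11b (1.38), Kdm6a (1.00) and Bcorl1 (0.81) and less Dpf3 (-2.05), Chd7 (-0.82) and Bcor (-0.59), and other Slc17a6 neurons more Dpf3 (1.17), Smarcd3 (0.50) and Smarca2 (0.45) and less Ncoa1 (-0.18), Chd4 (-0.17) and Chd9 (-0.14). Dpf3 and Smarcd3 are BAF subunits like Arid1b, and in OT-like neurons they had the opposite sign from it.

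Prenatal VPA was compared with prenatal saline in 1 library each, as the log2 ratio of CPM (1 CPM added) with an exact 95% interval that covers counting error only; both stand in parentheses after a gene. A gene counted as past the fold at a ratio of 5:4 or 4:5 and beyond. None of the 9 members was past it in neurons, where 16.7% of 15044 genes with at least 50 UMIs in both libraries were. The members' median was 0.05 and that of all genes 0.07. Over all neurons Pogz read 74.0 CPM with saline and 81.3 with VPA (0.13, 0.07 to 0.20). Also above 0 were Chd2 (0.09, 0.05 to 0.12), Setd5 (0.09, 0.05 to 0.12), Ash1l (0.06, 0.02 to 0.09) and Kmt2c (0.05, 0.02 to 0.08). Chd8 was at 0.01, -0.04 to 0.06, with 123 and 124 CPM. Below 0 were Ankrd11 (-0.09, -0.12 to -0.05), Arid1b (-0.12, -0.15 to -0.08) and Adnp (-0.14, -0.60 to 0.18). The 2 libraries differed in their neuron types: of 3648 neurons with saline 428 were thalamus-type and 1605 GABAergic, and of 7312 with VPA 334 and 4198. The values over all neurons hold that difference in type as well. They also hold the lower depth of the VPA neurons (a median of 6145 UMIs against 13186), whose part was not tested.

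By neuron type, VPA values were mostly small too. Pogz was measured in GABAergic (0.11, 0.02 to 0.20), Sim1/Otp-like (0.05, -0.07 to 0.16), thalamus-type (0.06, -0.20 to 0.31), other Slc17a6 (-0.01, -0.21 to 0.19) and OT-like neurons (0.30, -0.14 to 0.76). Its value over all neurons was above that of each type but OT-like, and only the GABAergic interval excluded 0. Ash1l lay between -0.06 and 0.04 in the 5 types, below its value over all neurons, and each interval included 0. Arid1b was below the saline level in GABAergic (-0.21, -0.26 to -0.16) and thalamus-type neurons (-0.19, -0.32 to -0.06) and above it in OT-like neurons, at 466 and 534 CPM (0.20, 0.02 to 0.38); that difference between types was not tested. Ankrd11 was below it in GABAergic (-0.11, -0.16 to -0.06) and Sim1/Otp-like neurons (-0.16, -0.22 to -0.10). OT-like neurons had 1 of 8 members past the fold, where 19.8% of 3310 genes were: Setd5, at 249 CPM with saline and 328 with VPA (0.40, 0.16 to 0.64).

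Glia had few members past the fold. Astrocytes had 0 of 8 (22.3% of 5879 genes); Chd2 was at 360 and 414 CPM (0.20, 0.07 to 0.34) and Arid1b at 379 and 333 (-0.19, -0.33 to -0.05). Oligodendrocytes had 1 of 8 (23.3% of 2982 genes), Ash1l, at 329 and 251 CPM (-0.39, -0.62 to -0.15), and Arid1b was at -0.28, -0.49 to -0.07. OPCs had 1 of 8 (21.3% of 2252 genes), Kmt2c, at 304 and 416 CPM (0.45, 0.19 to 0.71). Ankrd11 in OPCs was at -0.05, -0.22 to 0.11. Microglia had 1 of 6 (27.8% of 582 genes), Arid1b, whose interval included 0 (-0.33, -0.78 to 0.12) and whose sign turned to 0.82 with nuclei of at least 2000 UMIs.

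**Figure D4:**
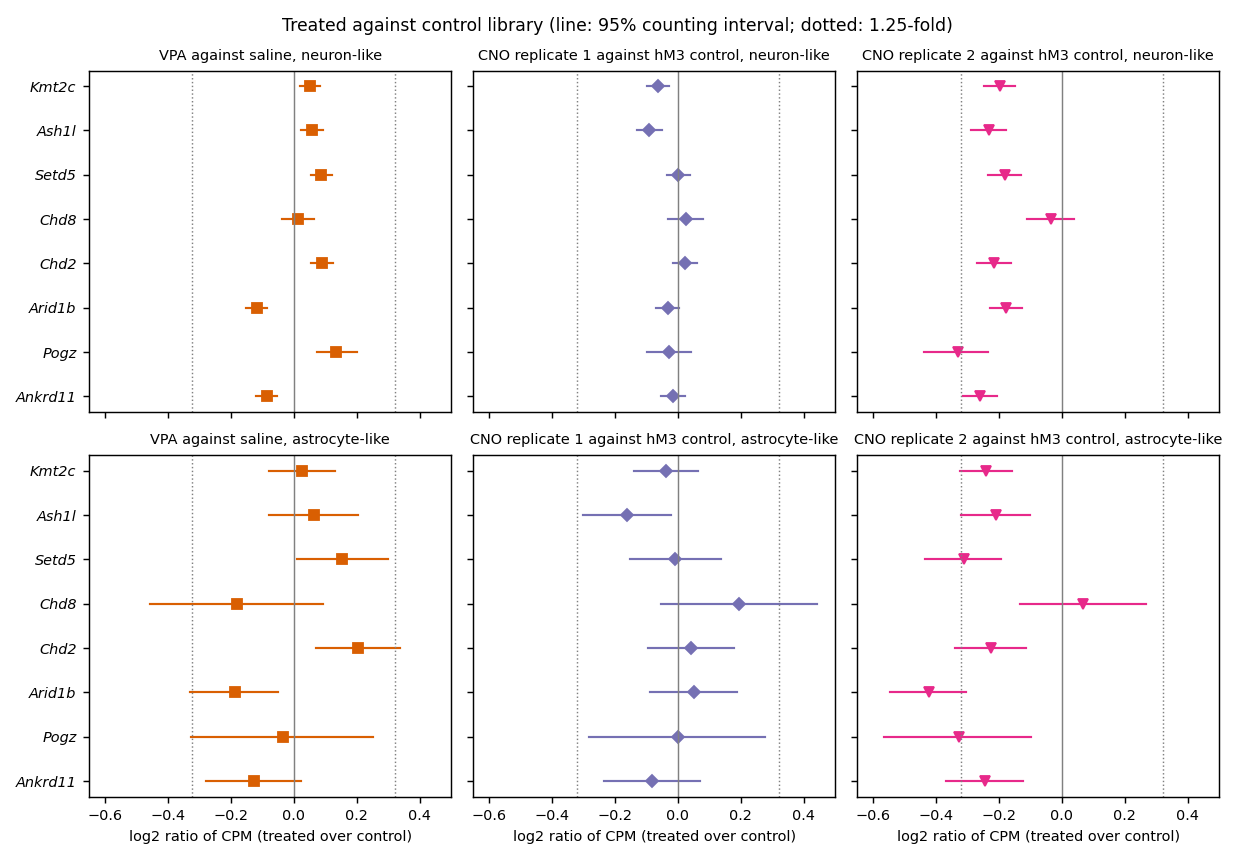
Log2 ratio of CPM for VPA against saline and for each CNO library against the hM3 control library, for the members other than Adnp, in neurons (upper row) and astrocytes (lower row), with lines for the exact 95% counting interval and dotted lines at that fold. In neurons the VPA values lie between -0.12 and 0.13, CNO replicate 1 between -0.09 and 0.02, and CNO replicate 2 between -0.33 and -0.04.

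Neonatal CNO was compared with the hM3 control, 2 libraries against 1, both of VPA-exposed mice. In neurons 0 of 8 members were past the fold in both CNO libraries, against 9.49% of 12798 genes. CNO replicate 1 lay close to the control, with a median of -0.02 and values from -0.09 (Ash1l) to 0.02 (Chd8), against a median of 0.08 over all genes. CNO replicate 2 had all 8 below 0, with a median of -0.21 and values from -0.33 (Pogz) to -0.04 (Chd8), against 0.04 and 44.5% below 0 over all genes. In the neurons of CNO replicate 2, mitochondrial genes and Malat1 took the larger share given above; their part in the lower member levels was not tested. The neuron types differed as well: 344 of 1618 neurons there were thalamus-type and 661 GABAergic, against 180 and 1489 of 2541 in the control. Within the 5 types the members' medians in CNO replicate 2 were less low, from -0.18 in thalamus-type to -0.12 in other Slc17a6 neurons.

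The CNO libraries differed by type as well. In GABAergic neurons CNO replicate 1 had 1 of 8 members below 0 (median 0.04) and CNO replicate 2 all 8 (median -0.17). Over all genes there, 31.1% and 43.7% were below 0 in these libraries, with medians of 0.09 and 0.05. Arid1b was -0.20, -0.29 to -0.11 and -0.20, -0.30 to -0.10 in Sim1/Otp-like neurons, at 327 CPM in the control and 285 in both CNO libraries, and 0.23, 0.12 to 0.35 and -0.16, -0.29 to -0.02 in thalamus-type neurons. In OT-like neurons 0 of 7 members were past the fold in both libraries (4.42% of 1402 genes). Arid1b there read 527 CPM in the control and 514 and 415 with CNO (-0.04, -0.27 to 0.20 and -0.34, -0.57 to -0.13), and Kmt2c 397 in the control and 320 and 357 with CNO (-0.31, -0.61 to -0.02 and -0.15, -0.39 to 0.09). In CNO replicate 1 alone Chd8 was past the fold, at 114 CPM in the control and 156 (0.45, -0.01 to 0.90), with an interval that included 0. In CNO replicate 2 alone Arid1b was, and Chd2, at 278 CPM in the control and 212 (-0.39, -0.70 to -0.09).

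In glia few members were past the fold. Astrocytes had 0 of 8 past the fold in both libraries (11% of 5685 genes), with medians of -0.00 and -0.24 and Arid1b lowest in CNO replicate 2 (-0.42). Without the Apoe-led cluster, which held most astrocytes of CNO replicate 2, the medians over the 6 members with enough UMIs were -0.02 and -0.26. Oligodendrocytes had 1 of 8 (10.0% of 2770 genes), Pogz, at 89.9 CPM in the control and 65.0 and 68.7 with CNO (-0.46, -0.82 to -0.11 and -0.38, -0.87 to 0.09). There CNO replicate 2 alone had Chd2 at -0.50 and Arid1b at -0.45. OPCs had 0 of 6 (7.64% of 1427 genes), and Ankrd11 read 564, 567 and 563 CPM in the 3 libraries, with intervals of -0.16 to 0.18 and -0.23 to 0.22. No member had 50 UMIs in microglia of all 3 libraries; 38.7% of the 119 genes that did were past the fold.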

How the data were processed

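Counts are the UMIs per gene and nucleus that the authors deposited, made with Cell Ranger 7.0.1 on mm10 per the submitters' processing notes; whether introns and strand entered the counting is not given in the sources used here. Nuclei below 1000 UMIs or above 5% mitochondrial reads were dropped (scanpy 1.11.5, Python 3.11.15), and the top Scrublet scores were removed at 0.8% per 1000 nuclei because the automatic threshold marked too few. Leiden clustering (2000 variable genes, 30 components, 20 neighbours; resolution 1, and 2 within neurons) left out the members and listed genes. Clusters were named from marker lists; the OT-like minimum of 300 CPM Oxt and 150 CPM Sim1 was set after seeing the data. UMIs summed per library and class were tested with edgeR 4.0.16 on R 4.3.3 (quasi-likelihood, TMM, library block, Benjamini-Hochberg over all genes), with DESeq2 1.42.0 as an alternative. Each SE is the size of the log2 difference divided by the root of its F statistic. For some members, such as Pogz in microglia, the edgeR p is larger than this SE implies. Data were simulated with the same mean profile in all classes or types, a fixed spread and no library effect. Only well-counted genes were changed, so recovery in the real data may differ. On these simulated data the class fit (oligodendrocytes, 11534 genes) recovered 99% of genes changed by 1 log2 unit and 44% by 0.5. The OT-like fit (14683 genes) recovered 81% and 26%. Contrasts with 1 library per arm have no test: a gene with at least 50 UMIs in each library was called past a fold of 5:4 (for CNO, in both libraries and 1 direction). Named are all members, up to 3 listed genes per direction and comparison, and the 3 genes most like each member, of which 1 is not reported here. Members and lists were chosen with earlier results of these data known.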

Additional observations from a re-analysis of the deposited data

How the results depend on the processing

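Of the values for single genes and members' medians, 1769 were labelled the same under the alternatives run. Of the rest, 105 moved, 40 passed newly, 27 no longer passed and 5 reversed. In the fits, the same means on the same side of the threshold, with the same sign where it passed. A sign that turned without a pass in either setting was not counted as reversed. For treatment ratios it means a shift within the spread of the CNO libraries, or within counting error for VPA. Of the counts of members, 256 stayed within 1.5 times and 59 moved. The cause was not tested. With DESeq2, 5 members rose in astrocytes, 1 fell in oligodendrocytes, 4 rose in OPCs, and 2 rose and 2 fell in GABAergic neurons. RLE factors gave 1 lower in oligodendrocytes. Without a filter on low counts 5 rose in astrocytes, 1 fell in OPCs, 2 rose in GABAergic and 1 fell in other Slc17a6 neurons. With doublets kept, 1 fell in oligodendrocytes, 0 in OPCs, and 2 rose in GABAergic neurons. Without the library block 0 fell in OPCs, 0 rose in GABAergic and 0 in thalamus-type neurons, and 1 fell in other Slc17a6 neurons. Astrocyte clusters without the Apoe-led one, chosen after seeing the data, left 1 lower in OPCs. Without scaling factors, also chosen then, 2 fell in oligodendrocytes, 8 rose in microglia, 4 in GABAergic, 3 in Sim1/Otp-like and 5 in OT-like neurons, and in thalamus-type neurons 0 rose and 7 fell; Chd8 reversed to 0.37 in microglia, and in thalamus-type neurons Setd5 to -0.20, Chd2 to -0.087 and Chd8 to -0.18.

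Leaving out 1 library at a time gave 3 to 4 members higher in astrocytes, 4 to 6 in microglia, 0 to 1 in GABAergic neurons (0 without saline replicate 1, VPA replicate 1 or the hM3 control), 0 to 2 lower in OPCs (0 without saline or VPA, 1 without CNO replicate 2), 2 to 3 lower in thalamus-type and 1 to 2 lower in other Slc17a6 neurons. For CNO the ranges were 0 to 1 in neurons, 1 to 2 in OT-like neurons, 0 to 2 in astrocytes and 1 to 3 in oligodendrocytes. Members past the fold with VPA were 0 in OT-like neurons with RLE factors or a fold of 1.5 and 2 with no minimum of UMIs, and 1 in astrocytes with no minimum. In oligodendrocytes they were 3 with TMM or RLE factors, 2 with no minimum and 0 at a fold of 1.5, and in OPCs 2 with doublets kept or no minimum and 0 at a fold of 1.5. In microglia they were 0 with at least 2000 UMIs per nucleus, doublets kept, RLE factors or a fold of 1.5 and 2 with no minimum, and Arid1b reversed to 0.82 with at least 2000 UMIs. With CNO, astrocytes had 1 with no minimum and oligodendrocytes 0 with at least 2000 UMIs or a fold of 1.5. No paired analysis was possible because the treatment arms hold 1 or 2 libraries and the labels give no pairing between them. Adnp was too low for the class test, and its counts are also uncertain because it lies within Gm20716; the cause of its low level was not tested. Depth limits microglia, where no member had enough UMIs in the CNO contrast.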

Other observations

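Among the listed chromatin genes, Brd9, a bromodomain subunit of BAF complexes, was past the fold of 5:4 in neurons with VPA, where 16.7% of all genes were, and with CNO, where 9.49% were. In neurons it read 45.5 CPM with saline and 61.6 with VPA (0.43 on the log2 scale), and 59.0 CPM in the hM3 control against 122.3 and 92.0 with CNO (1.04 and 0.63). It was the only listed gene past the fold in neurons of both CNO libraries. In OT-like neurons the control read 73.2 CPM and the CNO libraries 155.8 and 107.9, in astrocytes 95.3 against 202.2 and 121.1, and in oligodendrocytes 83.9 against 180.2 and 118.8. With VPA it was at 0.46 in OT-like neurons and 0.83 in astrocytes. It was not among the genes past the fold with VPA in oligodendrocytes, OPCs or microglia, nor with CNO in OPCs or microglia, whether through its level or through the minimum of 50 UMIs. Gps2, a co-repressor subunit, read 23.2 and 30.3 CPM in neurons with saline and VPA, and Men1 4.32 and 5.67. In astrocytes Gps2 read 34.5 CPM in the control and 54.4 and 60.4 with CNO, and Tbl1x 239.4 against 190.9 and 175.0. Chd3 in astrocytes read 57.7 CPM against 81.0 and 74.8. Tbl1xr1 in oligodendrocytes read 238.0 CPM in the control and 161.9 and 151.5 with CNO. Chd1 in oligodendrocytes read 101.0 CPM against 78.3 and 75.7, and Kdm4b 49.7 against 62.9 and 66.4. Listed genes past the fold with VPA in OT-like neurons and glia are not all named here. These contrasts rest on 1 control library each and carry no test.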
